A study of Mus musculus with 6 samples.

Results

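Glycolysis and pyruvate handling were followed through 35 genes, each a named enzyme, transporter or kinase of the route from glucose uptake to the entry of pyruvate into mitochondria, with the glycogen enzymes *Pygb* and *Gys1*. The genes were taken by symbol through their Ensembl identifiers, and all 35 had a row among the 17193 gene rows of the expression tables. RNA sequencing was performed on astrocytes that were separated from brain tissue of wild-type C57BL/6 mice, 3 months of age, with anti-ACSA-2 microbeads, which bind an astrocyte surface protein encoded by *Atp1b2*. The Mock group (the saline controls) and the Quinpirole group each had 3 libraries. Quinpirole is an agonist of the dopamine D2 receptor (DRD2), a receptor that astrocytes carry as well as neurons. The dose and duration behind these libraries, and whether animals were pooled, were not given in the sources used here, so the p-values below measure the spread between these libraries, which may in part be technical.

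Glycolysis splits glucose into pyruvate in the cytosol and yields ATP and NADH. Astrocytes are known for a high glycolytic flux: much of their pyruvate is reduced to lactate by lactate dehydrogenase and exported through monocarboxylate transporters, and they hold most of the glycogen of the brain. The remaining pyruvate enters mitochondria through the pyruvate carrier and is oxidised by pyruvate dehydrogenase, which the pyruvate dehydrogenase kinases switch off by phosphorylation. Most steps are served by several isozymes from separate genes that differ between tissues, so the choice of isozyme is read here from the level of each gene.

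Levels are given in FPKM (fragments mapped to a gene, scaled by its transcript length and by the depth of the library). Being per length, they are set side by side between genes here. Such comparisons depend on the transcript lengths used, which were not given, and on reads shared with copies of a gene. The depth behind the FPKM values, estimated from the steps between the lowest values, was 22300000 to 27600000 fragments per library. The lowest value of any of the 35 genes rested on about 282 fragments. Among 10 astrocyte markers all were measured, with *Gfap*, *Slc1a3*, *Aldh1l1* and *Glul* at means of 173 to 528 FPKM in the Mock group, but the glutamate transporter *Slc1a2* stood at only 8.10 FPKM and *S100b* at 5.63 FPKM. The smooth muscle actin gene *Acta2*, listed as a mural cell marker, averaged 2590.3 FPKM in the Mock group, whereas the pericyte markers *Rgs5* and *Kcnj8* were under 1 FPKM in every library. Of the 9 neuron markers, 7 were under 1 FPKM in every library, including *Rbfox3*, *Snap25* and *Syt1*. The summed level of the 7 microglia markers was 480 to 497 FPKM in the Mock libraries and 514 to 550 FPKM in the Quinpirole libraries, that of the 4 oligodendrocyte precursor markers 264 to 268 and 282 to 303 FPKM, and that of the 9 neuron markers 71.1 to 76.4 and 83.1 to 89.6 FPKM. The 4 mural markers, nearly all *Acta2*, summed to 2546 to 2715 and 2731 to 2902 FPKM. These sums were higher in every Quinpirole library, as was the total FPKM, and each was carried by a few genes, among them *C1qa*, *Olig1*, *Stmn2*, *Tubb3* and *Acta2*. Other markers of the same lists were lower after quinpirole, with *Csf1r* at 56.2 and 50.2 FPKM, *Cx3cr1* at 36.2 and 33.2 FPKM, *Cspg4* at 1.67 and 1.33 FPKM, and *Pdgfrb* falling from 26.2 to 21.2 FPKM (limma adjusted p = 0.0227). The sum of the 10 astrocyte markers overlapped (1534 to 1665 and 1509 to 1544 FPKM), and 2 of them fell, *Atp1b2*, the gene of the sorting antigen, from 178 to 156 FPKM (adjusted p = 0.0382) and *Slc1a2* from 8.10 to 5.82 FPKM (adjusted p = 0.0297, and 0.0575 with the length correction described below). Sums of 3 further lists overlapped: oligodendrocyte (156 to 176 and 163 to 173 FPKM), ependymal (137 to 152 and 138 to 146 FPKM) and endothelial markers (47.3 to 48.7 and 46.4 to 49.6 FPKM). They came mainly from *Cnp*, *Foxj1* and *Slco1a4*, at 160, 125 and 45.7 FPKM in the Mock group, respectively. The part of the marker differences between the groups in the results below was not tested. In bulk RNA, fewer cells of a type and less RNA per cell cannot be told apart.

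Across the route, the pathway was abundant. Its summed level was 5079, 5231 and 5453 FPKM in the Mock libraries and 5455, 5682 and 5471 FPKM in the Quinpirole libraries, higher in every Quinpirole library (5254 ± 188 and 5536 ± 127 FPKM, two-sided exact permutation p = 0.1, the smallest possible). The total FPKM of all genes was also higher in each Quinpirole library, at 401769 to 413730 in the Mock group and 425244 to 437164 in the Quinpirole group. Relative to that total, the 35 genes together held 1.29 ± 0.027% of all FPKM in the Mock group and 1.29 ± 0.010% in the Quinpirole group (SD, n = 3 libraries each), a difference inside the spread (exact permutation test, p = 0.8). Of that amount, 55.4% came from the 5 highest genes, *Eno1*, *Aldoa*, *Pkm*, *Ldhb* and *Ldha*. *Eno1* ranked 37th of all 17193 genes by mean level, *Aldoa* 45th and *Pkm* 51st. At the other end, the fructose-2,6-bisphosphatase *Tigar* averaged 3.63 FPKM and the lactate exporter gene *Slc16a3* 3.93 FPKM.

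**Figure D1:**
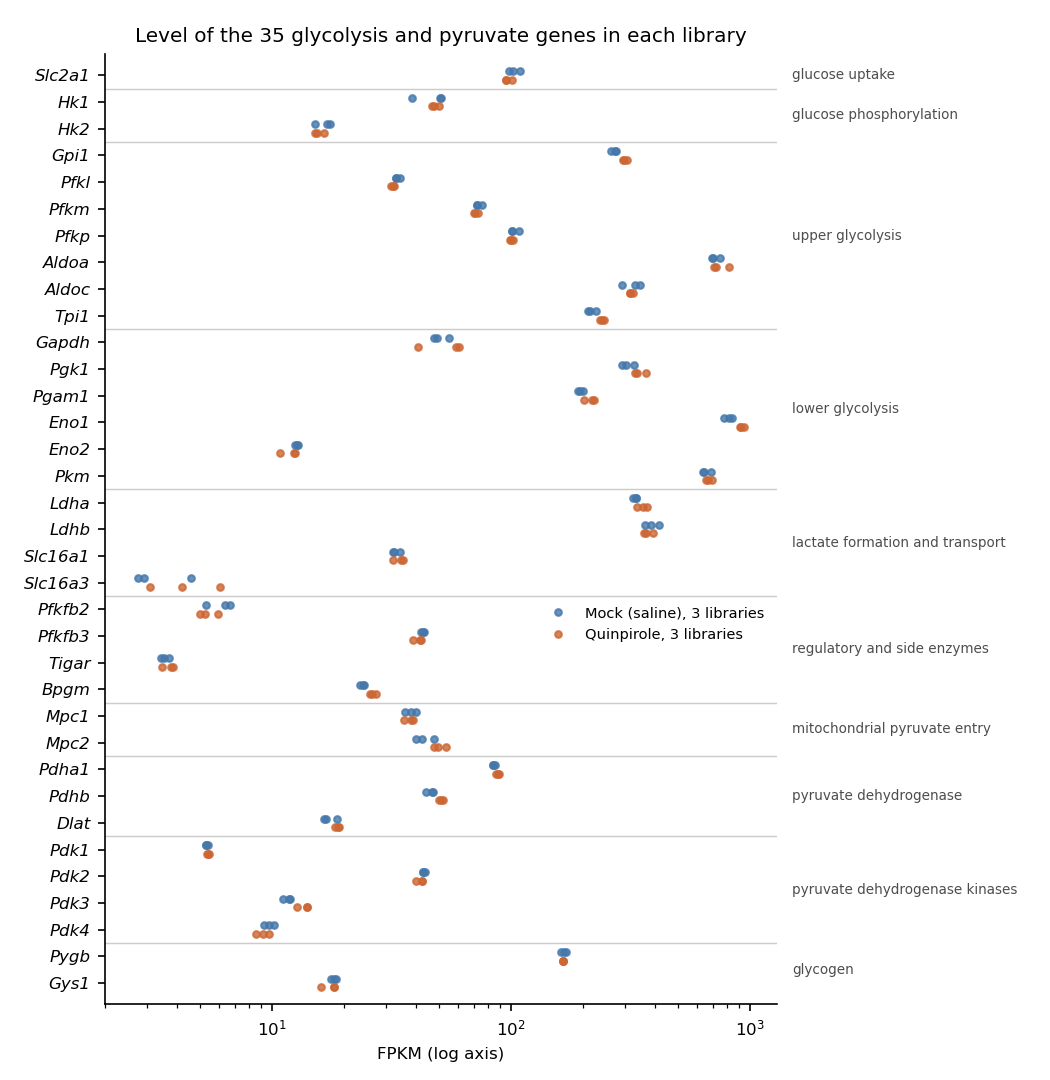
Level of each of the 35 genes in FPKM on a log axis, grouped by step of the route; each point is 1 library, blue for Mock and orange for Quinpirole. *Eno1*, *Aldoa* and *Pkm* lie at 635 FPKM or higher in every library, and *Tigar* and *Slc16a3* stay at 6.09 FPKM or lower.

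Differences between the groups were tested with limma on log2(FPKM + 1) across the 12255 genes with a mean of at least 1 FPKM, a filter that all 35 genes passed. After quinpirole 3 of the 35 rose past an adjusted p of 0.05, *Gpi1*, *Eno1* and *Pdk3*, none fell and 32 did not pass. That is 8.57% of the genes, against 10.9% of all genes tested, and 9 of the 35 had an unadjusted p under 0.05 against 31.3% of all genes. Libraries of the groups did not overlap for 13 genes, 11 higher and 2 lower after quinpirole, which is 37.1% against 36.9% of all genes tested (20% higher and 16.9% lower). The mean was higher after quinpirole for 20 of the 35 genes, against 53.8% of all genes tested. The median log2 fold change of the 35 genes was 0.04, that of all genes tested 0.02, and the range ran from -0.15 for *Pfkfb2* to 0.29 for *Slc16a3*. In both directions together the share that passed was below the background, while the share that rose, also 8.57%, stood above the 5.74% of all genes that rose and the share that fell, 0%, below the 5.18% that fell; with 35 genes this is a difference of a gene or so and was not tested.

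**Figure D2:**
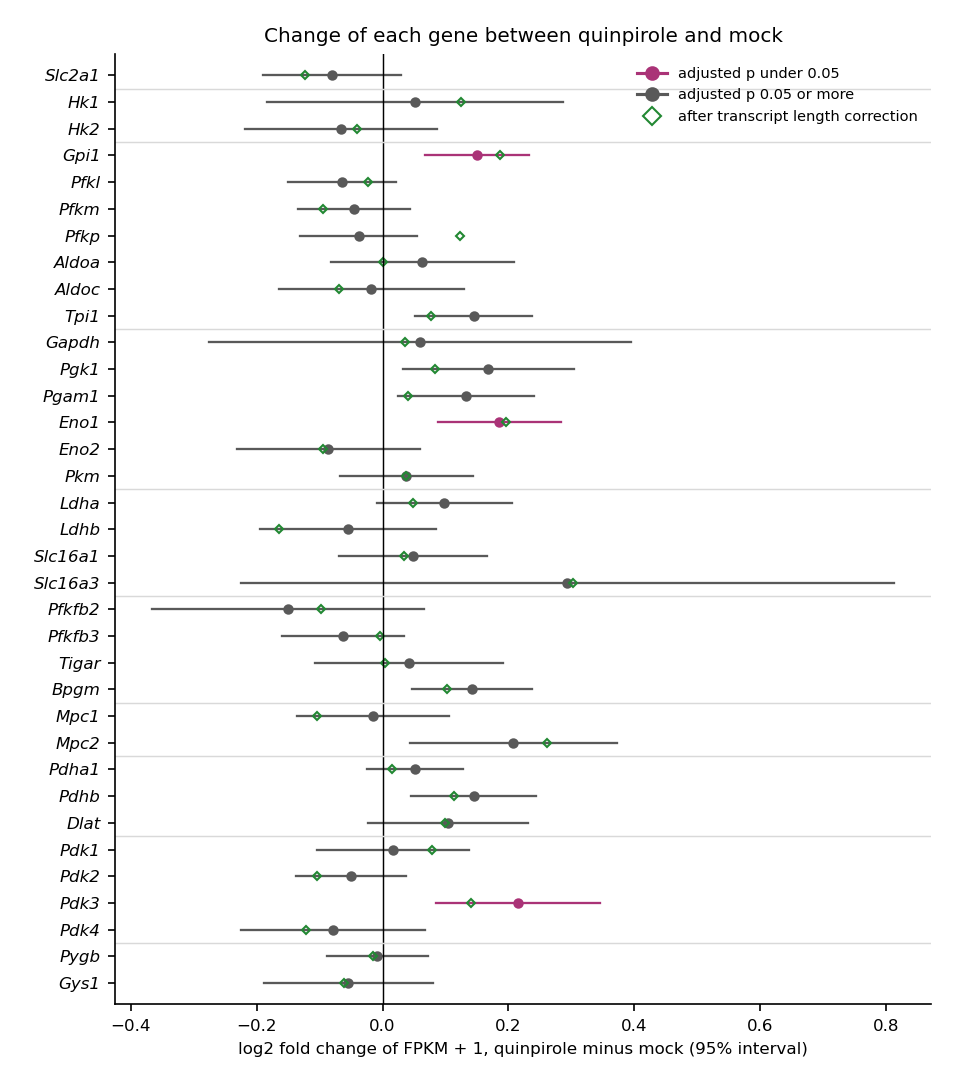
Log2 fold change of each gene on log2(FPKM + 1), quinpirole minus mock, with its 95% interval from limma. Purple marks an adjusted p under 0.05. Open diamonds give the value after correction for exonic length, named transcript length in the legend. The 3 genes in purple, *Gpi1*, *Eno1* and *Pdk3*, lie between 0.15 and 0.22, and for *Pdk3* the corrected value drops to 0.14.

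Across all genes the change depended on exonic length, the union of all annotated exons of a gene, and this touches each value below. This length can exceed that of the longest coding transcript. It was 5379 against 2027 nucleotides for *Eno1*, 6452 against 2884 for *Gpi1* and 2561 against 2115 for *Pdk3*. Genes with an exonic length under 4133 nucleotides, the median of the 35, were shifted up over the table (median log2 fold change 0.08) and longer genes down (-0.04). Among the 35 genes the shorter 17 had a median of 0.05 and the longer 18 a median of 0.03. After each library was corrected for exonic length, 4.38% of all genes passed (2.27% higher and 2.1% lower). Of the 35, *Gpi1* and *Eno1* still passed (5.71%) while *Pdk3* did not. The correction turned the sign of 1 gene, *Pfkp*, and moved the value of 23 others by more than 1.5 times, for example from 0.06 to 0.00031 for *Aldoa*, from -0.05 to -0.10 for *Pdk2* and from -0.02 to -0.105 for *Mpc1*. The length trend separates the groups themselves, so a technical and a biological origin of it cannot be told apart here. Which calls would stay with the length of single transcripts in place of the exonic length was not tested.

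**Figure D3:**
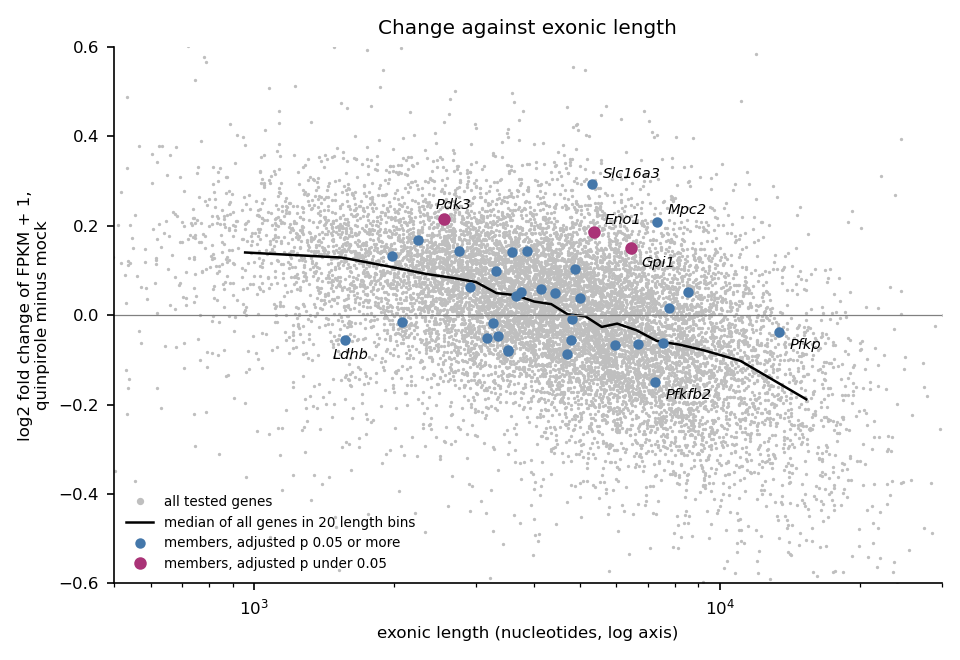
Log2 fold change on log2(FPKM + 1) against exonic length in nucleotides (log axis); grey points are all tested genes, the black line their median in 20 length bins, blue and purple points the 35 genes (172 genes lie outside the axes). The black line descends from short to long genes, *Eno1*, *Gpi1* and *Mpc2* lie above it, and *Ldhb* lies below it.

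*Gpi1*, glucose-6-phosphate isomerase, catalyses the conversion of glucose 6-phosphate to fructose 6-phosphate. Its level was 263, 275 and 272 FPKM in the Mock libraries and 295, 306 and 297 FPKM in the Quinpirole libraries. All 3 Quinpirole libraries lay above all 3 Mock libraries. The mean rose from 269.9 ± 6.25 to 299.6 ± 6.09 FPKM (SD, n = 3 each), a log2 fold change of 0.15 (SE 0.035, limma adjusted p = 0.042), and with the length correction the change was 0.19 (adjusted p = 0.0397). Leaving out any of the 6 libraries in turn ended the call (adjusted p 0.0557 to 0.122), with the change between 0.13 and 0.16, and under quantile normalization it was 0.032 (adjusted p = 0.58).

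*Eno1*, the enolase that forms phosphoenolpyruvate, was the most abundant gene of the pathway. It was measured at 782, 815 and 840.1 FPKM in the Mock libraries and at 915, 908 and 948 FPKM in the Quinpirole libraries. Again every Quinpirole library exceeded every Mock library. The mean rose from 812 ± 29.3 to 924 ± 21.4 FPKM, which is 13.7% (log2 fold change 0.19, SE 0.042, limma adjusted p = 0.0389; with the length correction 0.20, adjusted p = 0.0383). The call held without Mock 3 and was lost without each of the other 5 libraries (adjusted p up to 0.121), and under quantile normalization the value was -0.01. Of the 50-base words of its transcript, 72.2% also occur in transcripts of other genes, most in the copy *Eno1b*, so that reads could be split between these genes. *Eno1b* was listed at 44.2 to 53.6 FPKM in the Mock libraries and 29.9 to 54.4 FPKM in the Quinpirole libraries, and the sum of both genes was 835 to 891 and 945 to 1002 FPKM, respectively, without overlap.

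*Pdk3* encodes a pyruvate dehydrogenase kinase that is among the least abundant members of the pathway in these cells. Its values were 11.7, 11.1 and 11.9 FPKM in the Mock libraries and 12.8, 14.0 and 14.0 FPKM in the Quinpirole libraries, again without overlap. The mean rose from 11.6 ± 0.444 to 13.6 ± 0.714 FPKM (log2 fold change 0.22, SE 0.056, limma adjusted p = 0.04996), just inside the threshold. With the length correction the change was 0.14 and no longer passed (adjusted p = 0.137), and leaving out any single library also ended the call (adjusted p 0.062 to 0.154). None of its 50-base words occurs in another gene.

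For these 3 genes the bases just upstream of the transcription start are shown, since they moved in the same direction; the sequences are from RefSeq on GRCm38.p6, written 5′ to 3′ on the strand of the gene, and capitals mark matches on either strand to ACGTG or GCGTG, the core that hypoxia-inducible factors are known to bind. The *Gpi1* window is chr7:34230337-34230586 (minus strand), the *Eno1* window chr4:150236458-150236707 (plus strand) and the *Pdk3* window chrX:93832202-93832400 (minus strand).
Gpi1: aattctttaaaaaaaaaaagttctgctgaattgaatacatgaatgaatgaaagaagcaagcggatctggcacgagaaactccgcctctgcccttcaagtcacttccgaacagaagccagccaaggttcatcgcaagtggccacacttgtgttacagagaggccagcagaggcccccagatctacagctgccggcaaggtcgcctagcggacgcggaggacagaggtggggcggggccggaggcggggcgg
Eno1: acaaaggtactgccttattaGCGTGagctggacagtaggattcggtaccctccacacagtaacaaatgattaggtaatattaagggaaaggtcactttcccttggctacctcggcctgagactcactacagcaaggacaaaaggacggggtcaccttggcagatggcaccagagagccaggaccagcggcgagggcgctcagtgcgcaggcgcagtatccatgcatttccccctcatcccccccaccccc
Pdk3: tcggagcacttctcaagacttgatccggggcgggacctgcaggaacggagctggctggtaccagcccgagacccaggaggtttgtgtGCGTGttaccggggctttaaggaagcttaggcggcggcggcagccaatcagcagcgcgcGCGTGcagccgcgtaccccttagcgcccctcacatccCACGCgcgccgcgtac
The *Gpi1* window held 0 matches, the *Eno1* window 1 and the *Pdk3* window 3. Shares were counted over longer windows than those shown, which hold the 250 bases upstream of each RefSeq start and also bases past it. In these windows a match was found for 28 of the 35 genes (80%). The share was 46.7% of the 27025 genes with such a window and 68.1% of the 9607 tested genes among them. The E-box CACGTG, which always contains ACGTG and is read by factors of the Myc and Mlx families, was found for 6 of the 35 genes (17.1%), against 8.09% of all genes and 11.9% of tested genes. These matches describe letters in a window and no binding was measured. The genes with CACGTG were *Ldha*, *Pdk2*, *Pfkfb2*, *Pfkfb3*, *Pfkm* and *Slc16a1*, none of which passed the test.

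Glucose enters astrocytes mainly through GLUT1, encoded by *Slc2a1*. Its level was 98.5, 102 and 109 FPKM in the Mock libraries and 95.6, 95.5 and 101 FPKM in the Quinpirole libraries, so that the groups overlapped, and the mean moved from 103 ± 5.22 to 97.3 ± 3.03 FPKM (log2 fold change -0.08, SE 0.047, limma adjusted p = 0.279). Other glucose transporters were lower, with *Slc2a3*, the transporter typical of neurons, at 24.0 FPKM in the Mock group.

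For glucose phosphorylation, the step that traps glucose in the cell, the RNA level of *Hk1* exceeded that of *Hk2*. *Hk1*, the hexokinase typical of brain, was at 51.1, 50.4 and 38.7 FPKM in the Mock libraries and 49.8, 47.6 and 46.9 FPKM in the Quinpirole libraries. *Hk2*, the isozyme typical of muscle, was at 17.5, 16.9 and 15.1 FPKM in the Mock libraries and 16.5, 15.2 and 15.4 FPKM in the Quinpirole libraries. Mock 3 was the lowest library for both genes. Neither mean moved beyond the spread, with *Hk1* going from 46.7 ± 6.97 to 48.1 ± 1.50 FPKM (log2 fold change 0.05, SE 0.10, limma adjusted p = 0.759) and *Hk2* from 16.5 ± 1.27 to 15.7 ± 0.734 FPKM (-0.07, SE 0.065, adjusted p = 0.522). Without Mock 3 the value of *Hk1* was -0.08. *Hk1* held 73.8 ± 1.58% of the summed level of both in the Mock group and 75.4 ± 0.391% in the Quinpirole group. The shares did not overlap, but the exact permutation test stood at its smallest possible p of 0.1, and at 0.2 after adjustment over the 8 isozyme balances tested. Of the further hexokinases, *Hk3* averaged 5.02 FPKM in the Mock group and *Hkdc1* was under 1 FPKM.

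Phosphofructokinase commits the sugar to glycolysis, and its 3 genes kept the order *Pfkp*, *Pfkm*, *Pfkl* in 6 of 6 libraries. *Pfkp*, the platelet type, was at 101, 101 and 108 FPKM in the Mock libraries and 101, 102 and 98.9 FPKM in the Quinpirole libraries. *Pfkm*, the muscle type, was at 72.0, 72.1 and 76.1 FPKM and at 70.6, 72.7 and 69.8 FPKM, respectively. Both genes overlapped between the groups. *Pfkp* moved from 103 ± 4.25 to 100.5 ± 1.48 FPKM (log2 fold change -0.04, SE 0.040, limma adjusted p = 0.552) and *Pfkm* from 73.4 ± 2.32 to 71.1 ± 1.52 FPKM (-0.05, SE 0.038, adjusted p = 0.448). *Pfkl*, the liver type, was 1 of the 2 genes whose libraries lay lower without overlap, at 33.0 to 34.3 FPKM in the Mock group and 31.5 to 32.4 FPKM in the Quinpirole group, and it did not pass (-0.06, adjusted p = 0.271). *Pfkp* made up 49.1 ± 0.324% of the summed level in the Mock group and 49.4 ± 0.134% in the Quinpirole group (exact permutation p = 0.4, adjusted p = 0.457), *Pfkm* 34.9% in both groups, and *Pfkl* 15.9% and 15.7%. The spread of these shares over 6 libraries was within 1 percentage point, the narrowest after the enolases among the families with a test. *Pfkp* has the longest exonic length of the set at 13401 nucleotides, but its longest coding transcript has 4145. With the length correction, which uses the exonic length, its value was 0.12 (limma adjusted p = 0.241). The value with the length of a single transcript was not tested.

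Aldolase cleaves fructose 1,6-bisphosphate, and *Aldoc*, the brain aldolase that is widely used as an astrocyte marker, was not the leading gene. *Aldoa*, the muscle type, was at 694, 702 and 753 FPKM in the Mock libraries and 723, 816 and 711 FPKM in the Quinpirole libraries. *Aldoc* was at 293, 329 and 348 FPKM and at 316, 325 and 314 FPKM, respectively. *Aldoa* exceeded *Aldoc* in 6 of 6 libraries, and for both the groups overlapped. *Aldoa* moved from 717 ± 32.1 to 749.6 ± 57.4 FPKM (log2 fold change 0.06, SE 0.062, limma adjusted p = 0.524) and *Aldoc* from 323 ± 28.2 to 319 ± 5.77 FPKM (-0.02, SE 0.063, adjusted p = 0.869). The share of *Aldoc* was 31.1 ± 1.24% in the Mock group and 29.9 ± 1.19% in the Quinpirole group (exact permutation p = 0.3, adjusted p = 0.457).

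Triosephosphate isomerase, encoded by *Tpi1*, interconverts the products of aldolase. It was at 210.3, 215 and 227 FPKM in the Mock libraries and 239.9, 245 and 236 FPKM in the Quinpirole libraries, again without overlap. The mean moved from 217 ± 8.48 to 240.3 ± 4.23 FPKM (log2 fold change 0.14, SE 0.039, limma adjusted p = 0.0564) and missed the threshold. It passed with a minimum mean of 5 FPKM and without Mock 3 (adjusted p = 0.0413), and the change was 0.08 with the length correction (adjusted p = 0.147).

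In the lower part of glycolysis, where ATP and pyruvate are formed, 5 of 6 genes had a higher mean after quinpirole and 1, *Eno1*, passed the test. *Pgk1*, the kinase that makes the first ATP, was at 292, 302 and 328 FPKM in the Mock libraries and 332, 367 and 336 FPKM in the Quinpirole libraries, without overlap (log2 fold change 0.17, limma adjusted p = 0.0991, and 0.08 with the length correction). *Pgam1*, phosphoglycerate mutase, was likewise apart, with a mean of 195.5 ± 4.92 and 215 ± 11.2 FPKM (0.13, adjusted p = 0.101, and 0.040 with the length correction). Neither passed. For *Pgk1*, 68.0% of the 50-base words are shared with other genes, and the sum with its copy *Pgk1-rs7* was 309.5 to 338 FPKM in the Mock libraries and 348 to 380 FPKM in the Quinpirole libraries. *Pgam1* shares 41.5% of its words with 4 other genes, all pseudogenes.

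*Gapdh*, the dehydrogenase between these steps and a common reference gene, stood apart in level and in spread. It was listed at 49.1, 54.9 and 47.5 FPKM in the Mock libraries and at 60.6, 40.7 and 58.8 FPKM in the Quinpirole libraries. The values of the Quinpirole group thus enclosed those of the Mock group. Its mean over the libraries was 51.9 FPKM, rank 1482 of all genes, while *Tpi1* before it and *Pgk1* after it averaged 229 and 326 FPKM. The log2 fold change was 0.06 (SE 0.14, limma adjusted p = 0.808) and turned to -0.04 without Quinpirole 1. In its transcript 82.5% of the 50-base words occur in 222 other genes, 213 of them pseudogenes, the highest share among the 35 genes, and the part of this in the level was not tested.

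The enolase pair was the most one-sided of the isozyme families. *Eno2*, the neuronal enolase, was at 12.9, 12.5 and 12.7 FPKM in the Mock libraries and 12.4, 12.5 and 10.8 FPKM in the Quinpirole libraries, with overlap. The mean moved from 12.7 ± 0.192 to 11.9 ± 0.945 FPKM (log2 fold change -0.09, SE 0.062, limma adjusted p = 0.382). *Eno1* held 98.5 ± 0.0715% of the summed level in the Mock group and 98.7 ± 0.127% in the Quinpirole group, without overlap (exact permutation p = 0.1, the smallest possible, adjusted p = 0.2). *Eno3*, the muscle enolase, averaged 5.36 FPKM in the Mock group and 4.45 FPKM in the Quinpirole group (adjusted p = 0.16).

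Pyruvate kinase completes glycolysis, and *Pkm* encodes its M type. Its level was 635, 646 and 686 FPKM in the Mock libraries and 654, 697 and 668 FPKM in the Quinpirole libraries. The groups overlapped, and the mean moved from 655 ± 26.9 to 673 ± 22.0 FPKM (log2 fold change 0.04, 95% interval -0.07 to 0.14, limma adjusted p = 0.606). Under quantile normalization the value was -0.15 and passed the threshold (adjusted p = 0.0449), so the direction for this gene depended on the scaling.

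*Pkm* makes 2 enzymes, PKM1 and PKM2, by including either of 2 neighbouring exons, and the study turned on PKM2. Both exons are shown from the GENCODE M21 transcripts on GRCm38 because the tables hold a single value for the gene, which cannot tell them apart. They are coding exons on the plus strand, M1 at chr9:59675029-59675195 in the transcript Pkm-202 and M2 at chr9:59675568-59675734 in Pkm-201, and capitals mark the bases that differ.
M1 exon: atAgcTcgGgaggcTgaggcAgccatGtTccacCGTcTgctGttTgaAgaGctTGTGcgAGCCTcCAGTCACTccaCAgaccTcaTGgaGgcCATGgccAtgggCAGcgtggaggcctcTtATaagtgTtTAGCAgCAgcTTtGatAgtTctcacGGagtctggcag
M2 exon: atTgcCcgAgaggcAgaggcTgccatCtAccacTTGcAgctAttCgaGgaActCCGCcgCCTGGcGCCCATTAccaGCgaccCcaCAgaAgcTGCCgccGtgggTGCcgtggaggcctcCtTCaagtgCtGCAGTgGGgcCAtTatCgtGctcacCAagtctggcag
Each has 167 bases, of which 64 differ, an identity of 61.7%. A read inside either exon could thus be assigned, but the ratio of PKM1 to PKM2 was not analysed here. The splicing regulators of this choice, *Ptbp1*, *Hnrnpa1*, *Hnrnpa2b1* and *Srsf3*, were at 105, 114, 183 and 46.8 FPKM in the Mock group, and none passed the test (log2 fold changes 0.05 to 0.14, limma adjusted p 0.117 to 0.387).

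Lactate dehydrogenase interconverts pyruvate and lactate, and its H type *Ldhb* exceeded its M type *Ldha* in 6 of 6 libraries. *Ldhb* was at 363, 384 and 419 FPKM in the Mock libraries and 369, 392 and 359 FPKM in the Quinpirole libraries. *Ldha* was at 335, 324 and 335 FPKM in the Mock libraries and 357, 373 and 336 FPKM in the Quinpirole libraries. The libraries of *Ldha* were apart, by less than 1 FPKM at the nearest pair, and those of *Ldhb* overlapped. *Ldha* moved from 332 ± 6.16 to 355 ± 18.8 FPKM (log2 fold change 0.10, SE 0.046, limma adjusted p = 0.19) and *Ldhb* from 389 ± 28.2 to 373 ± 16.7 FPKM (-0.06, SE 0.060, adjusted p = 0.562). The value of *Ldhb* was -0.16 with the length correction (adjusted p = 0.0559) and -0.19 under quantile normalization, where it passed (adjusted p = 0.0302). The share of *Ldhb* was 52.0%, 54.2% and 55.5% in the Mock libraries and 50.8%, 51.2% and 51.7% in the Quinpirole libraries. All 3 Quinpirole shares lay below the Mock shares, with means of 53.9 ± 1.81% and 51.3 ± 0.440% (exact permutation p = 0.1, the smallest possible, adjusted p = 0.2). Both genes stayed within a few percentage points of an even split, so their order depends on the transcript lengths used for FPKM, which were not given in the sources used here.

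Lactate is carried across the membrane by monocarboxylate transporters, and *Slc16a1* (MCT1) was the main one measured. It was at 32.1, 34.3 and 32.4 FPKM in the Mock libraries and 34.7, 32.1 and 35.4 FPKM in the Quinpirole libraries. *Slc16a3* (MCT4), the exporter that astrocytes are known for, was at 2.91, 4.58 and 2.74 FPKM in the Mock libraries and 3.09, 6.09 and 4.19 FPKM in the Quinpirole libraries. Both overlapped, and *Slc16a3* varied more among libraries of a group than between the groups. *Slc16a1* moved from 32.9 ± 1.18 to 34.1 ± 1.76 FPKM (log2 fold change 0.05, SE 0.050, limma adjusted p = 0.542). *Slc16a3* moved from 3.41 ± 1.02 to 4.46 ± 1.52 FPKM, the largest change of the set but also the least certain (0.29, 95% interval -0.23 to 0.81, adjusted p = 0.403). *Slc16a1* held 90.7 ± 2.17% of the pair in the Mock group and 88.4 ± 3.98% in the Quinpirole group (exact permutation p = 0.6, adjusted p = 0.6). The neuronal transporter *Slc16a7* (MCT2) was under 1 FPKM on average, and *Bsg*, the chaperone of these transporters, was at 427 FPKM in the Mock group and 409.7 FPKM in the Quinpirole group (adjusted p = 0.72).

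**Figure D4:**
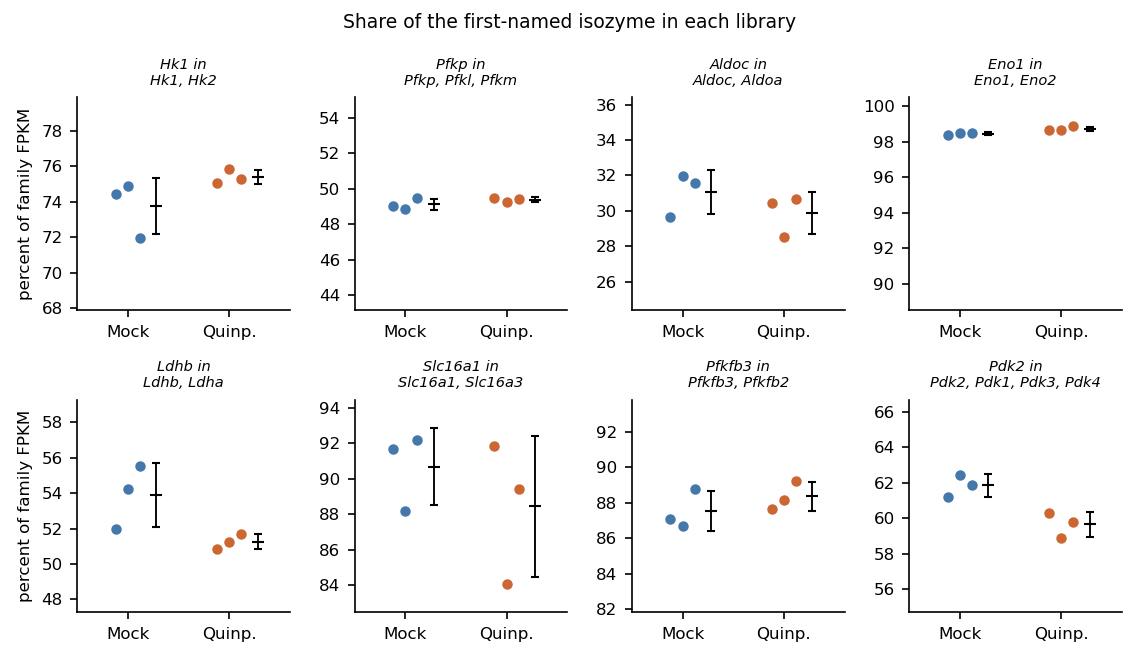
Share of the named isozyme in the summed FPKM of its family, in percent, for 8 families; each point is 1 library, and the bar beside each group gives its mean and SD (n = 3). Every panel spans 12 percentage points and none starts at 0; the groups are apart for *Hk1* and *Eno1* (higher after quinpirole) and for *Ldhb* and *Pdk2* (lower), each by less than 3 points between the means.

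Among the enzymes that set the pace of phosphofructokinase, *Pfkfb3*, which makes its activator fructose 2,6-bisphosphate, was the main gene. It was at 42.9, 43.4 and 42.0 FPKM in the Mock libraries and 42.1, 39.1 and 41.6 FPKM in the Quinpirole libraries. *Pfkfb2*, the isozyme typical of heart, was at 6.37, 6.67 and 5.30 FPKM and at 5.92, 5.25 and 5.02 FPKM, respectively. Both overlapped between the groups. *Pfkfb3* moved from 42.8 ± 0.724 to 40.9 ± 1.61 FPKM (log2 fold change -0.06, SE 0.041, limma adjusted p = 0.339) and *Pfkfb2* from 6.11 ± 0.721 to 5.39 ± 0.468 FPKM (-0.15, SE 0.092, adjusted p = 0.305). *Pfkfb3* held 87.5 ± 1.13% of the pair in the Mock group and 88.4 ± 0.802% in the Quinpirole group (exact permutation p = 0.4, adjusted p = 0.457). *Tigar*, which removes the activator, was at 3.44 to 3.85 FPKM over the 6 libraries (0.04, adjusted p = 0.689).

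*Bpgm* forms 2,3-bisphosphoglycerate beside the main route. It was at 24.2, 23.3 and 24.0 FPKM in the Mock libraries and 25.7, 27.2 and 26.3 FPKM in the Quinpirole libraries, without overlap, and did not pass (log2 fold change 0.14, SE 0.041, limma adjusted p = 0.0635). No alternative processing moved it past the threshold (adjusted p 0.0525 to 0.264).

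Pyruvate enters mitochondria through a carrier built from the products of *Mpc1* and *Mpc2*, and neither gene passed the test. *Mpc1* was at 36.1, 39.9 and 38.0 FPKM in the Mock libraries and 38.8, 38.3 and 35.7 FPKM in the Quinpirole libraries. *Mpc2* was at 42.3, 40.2 and 47.7 FPKM in the Mock libraries and 47.7, 49.5 and 53.4 FPKM in the Quinpirole libraries. *Mpc1* overlapped, while *Mpc2* was apart, with Mock 3 and Quinpirole 1 almost equal. *Mpc1* moved from 38.0 ± 1.90 to 37.6 ± 1.68 FPKM (log2 fold change -0.02, SE 0.052, limma adjusted p = 0.867) and *Mpc2* from 43.4 ± 3.87 to 50.2 ± 2.90 FPKM (0.21, SE 0.070, adjusted p = 0.0944). *Mpc2* passed only when Mock 3 was left out (adjusted p = 0.0413), and it was 0.26 with the length correction (adjusted p = 0.0874). That correction used its exonic length of 7344 nucleotides, while its longest coding transcript has 1025. A difference between the 2 subunits in their response was not tested.

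The pyruvate dehydrogenase complex, which turns pyruvate into acetyl-CoA, had 3 of 3 genes with a higher mean after quinpirole and 0 past the test. *Pdha1*, the catalytic alpha subunit that the kinases phosphorylate, was at 84.0, 86.1 and 84.4 FPKM in the Mock libraries and 88.6, 88.8 and 86.4 FPKM in the Quinpirole libraries. *Pdhb*, the beta subunit, was at 43.9, 47.4 and 47.0 FPKM in the Mock libraries and 51.1, 52.2 and 49.8 FPKM in the Quinpirole libraries. *Dlat*, the acetyltransferase core, was at 18.7, 16.6 and 16.9 FPKM in the Mock libraries and 18.3, 18.9 and 19.0 FPKM in the Quinpirole libraries. *Pdha1* and *Pdhb* were apart and *Dlat* overlapped through Mock 1. The means moved from 84.8 ± 1.14 to 87.9 ± 1.32 FPKM for *Pdha1* (log2 fold change 0.05, SE 0.033, limma adjusted p = 0.324), from 46.1 ± 1.90 to 51.0 ± 1.17 FPKM for *Pdhb* (0.14, SE 0.043, adjusted p = 0.068) and from 17.4 ± 1.14 to 18.7 ± 0.388 FPKM for *Dlat* (0.10, SE 0.055, adjusted p = 0.236).

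The kinases that inhibit this complex kept the order *Pdk2*, *Pdk3*, *Pdk4*, *Pdk1* in 6 of 6 libraries. *Pdk2*, the most widespread kinase, was at 42.9, 43.6 and 43.0 FPKM in the Mock libraries and 42.3, 40.2 and 42.4 FPKM in the Quinpirole libraries. *Pdk4*, known to be induced by fasting, was at 10.1, 9.74 and 9.24 FPKM and at 9.74, 8.56 and 9.13 FPKM, respectively. *Pdk1*, a target of hypoxia-inducible factors, was at 5.27, 5.41 and 5.28 FPKM and at 5.32, 5.45 and 5.40 FPKM. *Pdk2* was lower in every Quinpirole library and the other two overlapped. None of them passed: *Pdk2* moved from 43.2 ± 0.424 to 41.7 ± 1.25 FPKM (log2 fold change -0.05, SE 0.037, limma adjusted p = 0.396), *Pdk4* from 9.71 ± 0.456 to 9.15 ± 0.594 FPKM (-0.08, SE 0.063, adjusted p = 0.429) and *Pdk1* from 5.32 ± 0.0781 to 5.39 ± 0.0649 FPKM (0.02, SE 0.052, adjusted p = 0.853). With *Pdk3* higher and *Pdk2* lower, the share of *Pdk2* was 61.9 ± 0.627% in the Mock group and 59.7 ± 0.707% in the Quinpirole group, without overlap (exact permutation p = 0.1, the smallest possible, adjusted p = 0.2). The share of *Pdk3* was 15.9% to 17.2% in the Mock libraries and 18.2% to 20.6% in the Quinpirole libraries.

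Glycogen is broken down by phosphorylase and made by glycogen synthase. *Pygb*, the brain phosphorylase, was at 161 to 171 FPKM in the Mock libraries and 165 to 166 FPKM in the Quinpirole libraries (log2 fold change -0.01, limma adjusted p = 0.885). *Gys1*, glycogen synthase, was at 17.8 to 18.6 FPKM and 16.1 to 18.2 FPKM, respectively (-0.05, adjusted p = 0.55). *Pygb* exceeded *Pygl*, the liver phosphorylase, which averaged 4.54 FPKM in the Mock group, and the muscle phosphorylase *Pygm* was under 1 FPKM.

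Other genes of the pathway were read from the same fit. Of 21 further glucose uptake and glycolysis genes tested 0 passed, and of 17 further genes of pyruvate dehydrogenase and pyruvate use 0 passed, the latter with a median change of 0.11 on the log2 scale where the table as a whole had 0.02. *Pgk2*, *Pklr*, *Fbp2* and *Ldhc* were not analysed here. Of 21 further glycogen genes 1 rose and 1 fell. *Ugp2*, which makes the UDP-glucose from which glycogen is built, rose from 36.5 ± 0.913 to 42.3 ± 0.779 FPKM (0.21, limma adjusted p = 0.0253). *Gaa*, the lysosomal enzyme that degrades glycogen, fell from 102 ± 0.338 to 87.8 ± 3.55 FPKM (-0.21, adjusted p = 0.0258). The shares, 1 of 21 in each direction, compare with 5.74% of all genes higher and 5.18% lower.

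Among 20 regulators of glycolysis genes tested 1 fell and 0 rose. This count and the one for hypoxia-responsive genes below compare with 5.18% of all genes lower and 5.74% higher. *Epas1*, which encodes the hypoxia-inducible factor HIF-2α, fell from 32.7 ± 0.486 to 28.5 ± 1.03 FPKM (log2 fold change -0.20, limma adjusted p = 0.0333). *Hif1a* was at 15.7 FPKM in both groups (-0.0011, adjusted p = 0.991). Of 13 hypoxia-responsive genes outside glycolysis 1 rose, *Bnip3*, a mitophagy receptor, from 12.7 ± 0.691 to 15.1 ± 0.740 FPKM (0.23, adjusted p = 0.0459), while *Vegfa* was at 13.6 and 13.5 FPKM (adjusted p = 0.986). With the length correction *Gaa* and *Epas1* still passed, and *Ugp2* (adjusted p = 0.0507) and *Bnip3* (adjusted p = 0.103) did not. Under that correction 2 genes of these lists gained a call: *Ddit4*, an inhibitor of mTOR signalling and the only hypoxia-responsive gene of the list then past the threshold, was lower (-0.25, adjusted p = 0.0311, against -0.15 and 0.0899 without it), and *Me3*, a mitochondrial malic enzyme, was higher (0.41, adjusted p = 0.0373, against 0.22 and 0.0708 without it).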

How the data were processed

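Poly(A) RNA libraries made with a kit that does not keep strand were sequenced in pairs. The authors removed adaptor and low-quality reads, mapped the rest with TopHat2 to GRCm38 (build per the submitters' processing notes) and deposited expression as FPKM, 1 table for each library, already scaled by transcript length and depth. The program and annotation behind FPKM were not given in the sources used here, and pseudogene copies could take reads from their parent genes.

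Of 17193 identifiers 17090 matched a symbol. Positions, exonic lengths and transcripts came from GENCODE M21. Depth was estimated from 1254 genes with 1 transcript of at least 2000 nucleotides, where 60.2% to 68.9% of low values lay within 0.1 of a whole fragment (20% by chance), too few to recover counts. Log2(FPKM + 1) of genes with a mean of at least 1 FPKM was tested with limma 3.58.1 in R 4.3.3 (lmFit, eBayes with trend, two-sided, Benjamini-Hochberg over all tested genes, threshold 0.05). Isozyme shares were tested with two-sided exact permutation of 6 libraries (scipy 1.17.1). The length correction subtracts a loess curve (span 0.3) on log2 exonic length, the union of all annotated exons, from each library. The scripts were tested on simulated data. Genes were named in full where they passed, led an isozyme family, or belonged to a transport, pyruvate or kinase step; of the other lists, genes past the threshold were named, and other genes given as levels were picked for their role. *Ddit4*, *Me3* and the markers named as lower were chosen after their values were seen. The 35 genes and the lists were chosen with earlier results of these data known. Same-numbered libraries did not deviate together (correlations 0.03, -0.07 and -0.10), so the numbers were not taken as pairs.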

Additional observations from a re-analysis of the deposited data

How the results depend on the processing

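With 3 libraries a group and calls close to the threshold, the counts depended strongly on the processing. Of 593 recomputed fold changes of the 35 genes, 534 kept direction and side of the threshold, 21 changed sign, 35 lost a call and 5 gained one; for *Eno1* and *Pkm* under quantile normalization both the sign and the call changed. The 3 higher calls went to 0 without a filter, with eBayes run without trend, under quantile normalization and with a replicate block, alone or with the length correction. Leaving out 1 library gave 0 to 3 higher calls. The 3 came without Mock 3 and were *Tpi1*, *Eno1* and *Mpc2*, so *Gpi1* and *Pdk3* were lost there too. Over all genes, 1339 calls became 633 without a filter, 788 under quantile normalization, 714 without trend, 535 with the length correction, 341 with length and GC content, and 3 to 1215 without 1 library (6, 3 and 1215 without Mock 1, 2 and 3, and 11, 25 and 210 without Quinpirole 1, 2 and 3). With the replicate block 2 genes of the whole table passed, and 0 with the block and the length correction, where 2738 had an unadjusted p under 0.05. Libraries of the same number did not deviate together, so the block spends degrees of freedom on a number only. The cause of the other differences was not tested.

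Quantile normalization turned several abundant genes: *Hk1* -0.00053, *Aldoa* -0.079, *Eno1* -0.015, *Pkm* -0.15, *Ldha* -0.039 and *Pdha1* -0.020, with 2 lower calls (*Pkm* and *Ldhb*) and a median of -0.039 over the 35 genes. It moved the share of *Pfkp* to -0.22 percentage points, of *Eno1* to 0.063 and of *Pdk2* to -3.17. The length correction turned *Pfkp* to 0.12, also with the block, and its share to 3.43 points. Length with GC content turned *Pfkl* to 0.021, *Pfkp* to 0.11, *Slc16a1* to -0.0075, *Pdha1* to -0.0092 and *Pygb* to 0.0089. Leaving out 1 library changed the sign of *Hk1* (-0.077 to 0.12), *Aldoc* (-0.088 to 0.037) and *Pygb* (-0.030 to 0.010), each without Mock 3, of *Gapdh* (-0.041 to 0.24) without Quinpirole 1 or 3, of *Mpc1* (-0.050 to 0.021) without Mock 2 or Quinpirole 3, and of *Gys1* (-0.084 to 0.00085) without Quinpirole 2. The median over the 35 genes then ranged from 0.012 to 0.049. The 4 genes named from the other lists, for which the alternatives were added after their calls were seen, kept direction in 17 of 17 settings, and without 1 library *Ugp2* passed in 1 of 6, *Gaa* in 2, *Epas1* in 1 and *Bnip3* in 0. Isozyme shares could not reach p under 0.05 with 3 against 3 libraries, nor under a sign-flip test of numbered pairs, whose smallest p is 0.25.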

Other observations

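Several isozymes that mark other tissues were close to absent. *Fbp1* and *Pck1*, which serve glucose production in liver and kidney, averaged under 1 FPKM in both groups, as did the muscle phosphorylase *Pygm* and the liver glycogen synthase *Gys2*. *Pcx*, pyruvate carboxylase, an enzyme that astrocytes have and neurons largely lack, was at 66.2 FPKM in the Mock group and 62.0 FPKM in the Quinpirole group (limma adjusted p = 0.14). *Glul*, glutamine synthetase, which with pyruvate carboxylase feeds glutamine export, was at 353 and 355 FPKM (adjusted p = 0.86).

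The malic enzymes *Me1*, *Me2* and *Me3*, which return malate to pyruvate, each had a higher mean after quinpirole, with log2 fold changes of 0.09, 0.15 and 0.22 (limma adjusted p 0.161, 0.0615 and 0.0708), and none passed the threshold. With the length correction *Me3* was at 0.41 and passed (adjusted p = 0.0373). These genes were picked after their values were seen.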
